A study of Mus musculus with 8 samples.

Results

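Splicing of messenger RNA precursors is carried out by small nuclear ribonucleoproteins and steered by RNA-binding proteins of the SR and hnRNP families, and the RNA of all 3 gene families was measured in mouse kidney tubuloids. The members were found by symbol alone: every gene listed in the deposited tables as Srsf, Snrp or Hnrnp followed only by letters or digits was taken, whatever its value. This gave 43 of 24063 listed genes, of which 11 were SR genes (25 listed transcripts), 12 were snRNP genes (16 transcripts) and 20 were hnRNP genes (50 transcripts). Genes under another symbol pattern, such as those beginning with Snrnp, are described separately at the end.

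Tubuloids are epithelial structures that form when tubule fragments of postnatal mouse kidney, taken at day 7 to 10 according to the labels, are grown in Matrigel with HGF, EGF and FGF. All 8 cultures came from mice of the genotype Pkd2fl/fl Pax8rtTA TetOCre mTmG, in which the Pax8 promoter drives the doxycycline-dependent activator in renal epithelium, and no doxycycline is named for these cultures. The 4 GDNF pulsed cultures (numbers 6, 12, 17 and 22) received glial-derived neurotrophic factor for 24 h, whereas 4 control cultures (numbers 3, 7, 14 and 21) received none, and RNA was taken on culture day 7. The comparison asks whether the pulse, given to promote collecting-duct-like tubules, left a difference in the RNA of these genes.

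In the spliceosome, the U1, U2, U4 and U5 small nuclear RNAs each carry a ring of 7 Sm proteins, encoded here by Snrpb, Snrpd1, Snrpd2, Snrpd3, Snrpe, Snrpf and Snrpg, and each particle adds proteins of its own. SR proteins bind exonic enhancers through their RNA recognition motifs and help recruit these particles, and many hnRNP proteins bind exonic or intronic silencers and coat nascent transcripts. Several SR genes are known to limit their own protein by including an extra exon with a premature stop codon, a so-called poison exon, which marks the transcript for nonsense-mediated decay.

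Total counts over all listed transcripts lay between 72991721 and 97490625 per culture. The share of counts in transcripts of up to 1000 bases was 12.6% to 18.3% in control cultures and 10.5% to 12.8% in GDNF cultures, and it was highest in control culture 3. That culture also had the lowest TMM factor, the scaling that corrects for library composition (0.790, against 0.963 to 0.982 in the other controls and 1.07 to 1.11 in GDNF cultures). All 7 tubule epithelium markers had a mean of at least 1 TPM, as did all 7 stromal markers. Only 1 of 4 endothelial, 2 of 5 leukocyte and 3 of 4 podocyte markers did. Summed TPM of the epithelial markers was 429 to 3435 in control cultures and 1006 to 1400 in GDNF cultures, that of the stromal markers was 358 to 1782 and 448 to 1587, that of 4 endothelial markers 9.28 to 30.7 and 12.2 to 31.1, that of 5 leukocyte markers (Cd3e at 0 throughout) 4.64 to 8.80 and 4.49 to 40.5, and that of 4 podocyte markers 10.1 to 81.1 and 17.7 to 86.7. The endothelial sums were mostly Emcn (9.04 to 30.2 TPM), and the highest leukocyte sum was mostly Lyz2, at 35.0 TPM in GDNF culture 17. The part of cell composition in the results below was not tested, and in these bulk libraries fewer cells of a type and less RNA per cell cannot be told apart.

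The 3 families differed in transcript length. Dividing count by FPKM gave a length in whole bases for 100% of the transcripts detected. Taking the transcript with the highest mean count of each gene, snRNP transcripts had a median of 825 bases, from 393 (Snrpg) to 1970 (Snrpn), and 7 of 12 were no longer than 1000 bases. SR transcripts had a median of 2739 bases, from 1252 (Srsf9) to 5560 (Srsf1), and hnRNP transcripts one of 2714 bases, from 1960 (Hnrnpa1) to 8007 (Hnrnpr). No SR or hnRNP gene was as short as 1000 bases. For Srsf3, Srsf7, Srsf9 and Hnrnpa2b1 the most counted transcript was a noncoding one (NR_), and the SR median is the length of that of Srsf7. Transcripts of one gene probably share reads in these counts, so the most counted one is not shown to be the main form. Over the 13698 genes of at least 1 TPM the median was 2632 bases, so the snRNP genes were the family that stood apart in length.

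Levels between genes were compared in TPM, which is scaled by length. The TPM of a gene is that of its most counted transcript, which for Srsf7 and Hnrnpa2b1 is a noncoding one. The median over members was 161 TPM for snRNP genes, 113 TPM for SR genes and 76.8 TPM for hnRNP genes. Among SR genes, Srsf5, which encodes SRp40, had the highest mean, with 178, 461, 298 and 347 TPM in control cultures 3, 7, 14 and 21 and 699, 609, 437 and 452 TPM in GDNF cultures 6, 12, 17 and 22 (cultures are listed in this order from here on). Srsf7, encoding 9G8, was next with 182, 283, 228 and 272 TPM in controls and 428, 335, 307 and 368 TPM in GDNF cultures. Srsf2, encoding SC35, followed with 156, 239.8, 212 and 333 TPM and 348, 326, 322 and 358 TPM. These 3 genes overlapped in their culture values, so their order was not resolved beyond the spread. Srsf12 was the least abundant of all 43 members, at 0.381 TPM on average.

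Of the hnRNP genes, Hnrnpa2b1, whose proteins bind RNA in splicing and transport, had the highest mean TPM, with 218, 388, 311 and 583 TPM in controls and 673, 597, 593 and 679 TPM in GDNF cultures. Hnrnpk, encoding a KH domain protein that binds C-rich RNA, had 332, 302, 352 and 417 TPM and 339.5, 317, 357 and 367 TPM. For Hnrnpab, an RNA-binding protein related to Hnrnpd, the values were 179.8, 133, 148 and 297 TPM and 193, 161, 201 and 172 TPM. In the GDNF cultures the 3 genes kept this order without overlap, whereas in the controls Hnrnpa2b1 and Hnrnpk overlapped. The lowest hnRNP gene was Hnrnpul2, at 2.90 TPM.

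Within the Sm ring, whose proteins assemble in equal number, TPM differed 12.1-fold between the highest and the lowest gene. Snrpg had 1679, 1447, 1062 and 1252 TPM in controls and 1245, 1219, 1256 and 1173 TPM in GDNF cultures, and Snrpe had 1306, 1173, 936 and 994 TPM and 1029, 949, 976 and 935 TPM. Snrpd2 had 473, 383, 422 and 339.9 TPM and 362, 300.1, 313 and 292 TPM, which placed it below Snrpg and Snrpe in every culture. Snrpf was the lowest of the ring, with a mean of 107 TPM. Snrpn, a close relative of Snrpb, was the lowest snRNP gene at 10.4 TPM. Processed copies of Snrpe, Snrpg, Hnrnpa1, Hnrnpa3 and Hnrnpk exist in the mouse genome, Snrpb resembles Snrpn, and Snrpn shares transcripts with Snurf, so the division of reads among these copies is uncertain.

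**Figure D1:**
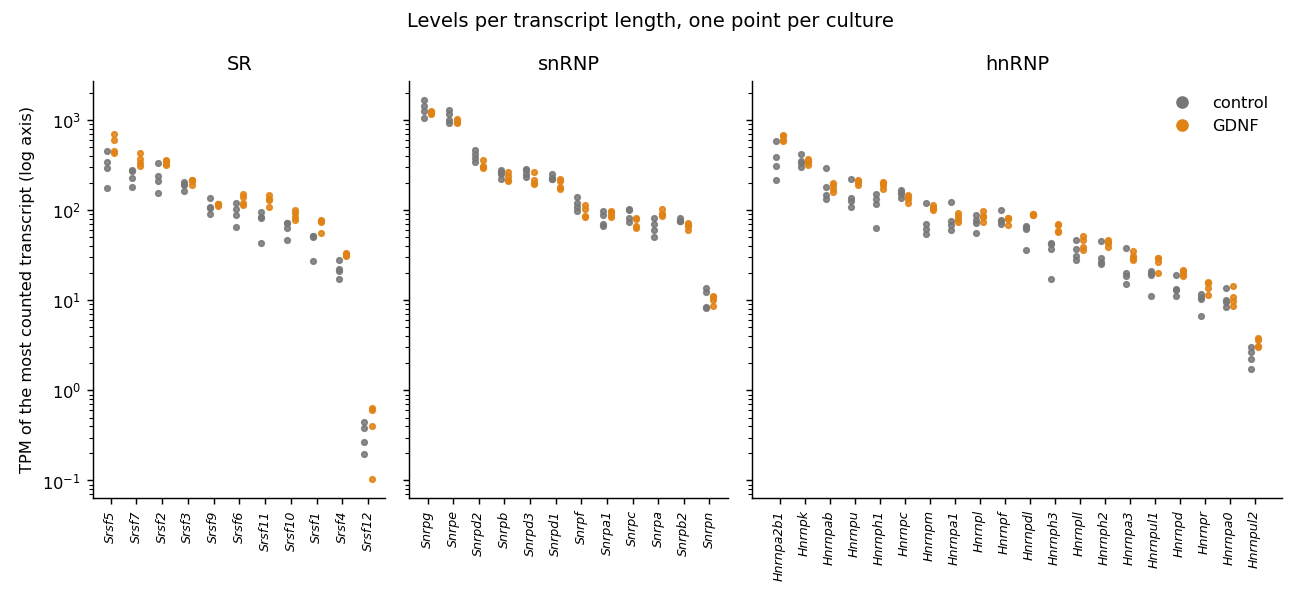
TPM of the most counted transcript of each gene (log axis), with one point for each of the 4 control and 4 GDNF cultures, by family. The snRNP genes Snrpg and Snrpe lie above all other members in every culture, and Srsf12 lies lowest, below 1 TPM.

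Summed over its members, the SR family held 991, 1577, 1377 and 1653 TPM in controls and 2196, 2019, 1870 and 2020 TPM in GDNF cultures, and the groups did not overlap. The snRNP sum was 4681, 4096, 3615 and 3855 TPM in controls and 3866, 3457, 3664 and 3394 TPM in GDNF cultures. For hnRNP genes the sum was 1489, 1745, 1754 and 2554 TPM and 2400, 2263, 2437 and 2497 TPM. Each of the last 2 sums overlapped between groups. The ratio of snRNP to SR TPM was 2.33 to 4.72 in controls and 1.68 to 1.96 in GDNF cultures, with control culture 3 the highest, and the groups did not overlap. TPM depends on the composition of each library: the median TPM of genes over 1 TPM was itself 7.69 to 11.8 in controls and 12.8 to 14.6 in GDNF cultures. Differences between groups were therefore measured on counts scaled by TMM factors and given as log2 fold changes of GDNF over control.

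Across all genes, no gene passed an adjusted p of 0.05 in edgeR's quasi-likelihood test (0 of 16557 tested, smallest adjusted p = 0.167), and no member did. An unadjusted p of 0.05 was passed by 9.25% of all genes with a higher value and by 12.9% with a lower value in GDNF cultures. At the same adjusted p, DESeq2 called 1253 genes and limma-voom with quality weights 0. All 43 members passed the filter on low counts. By the unadjusted p in edgeR, 9 of 12 snRNP genes were lower and 0 higher, 1 of 11 SR genes was higher and 0 lower, and 2 of 20 hnRNP genes were higher and 3 lower. The medians of the log2 fold changes were -0.62 for snRNP, 0.14 for SR and 0.08 for hnRNP genes, and 0.03 for all genes tested. CPM, the counts of a gene scaled by sequencing depth and TMM factor, did not overlap between groups for 6.99% of all genes in the higher direction and 6.26% in the lower. Among members, this held for 7 snRNP genes (all lower), for 1 SR gene higher and 1 lower, and for 3 hnRNP genes higher and 2 lower.

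**Figure D2:**
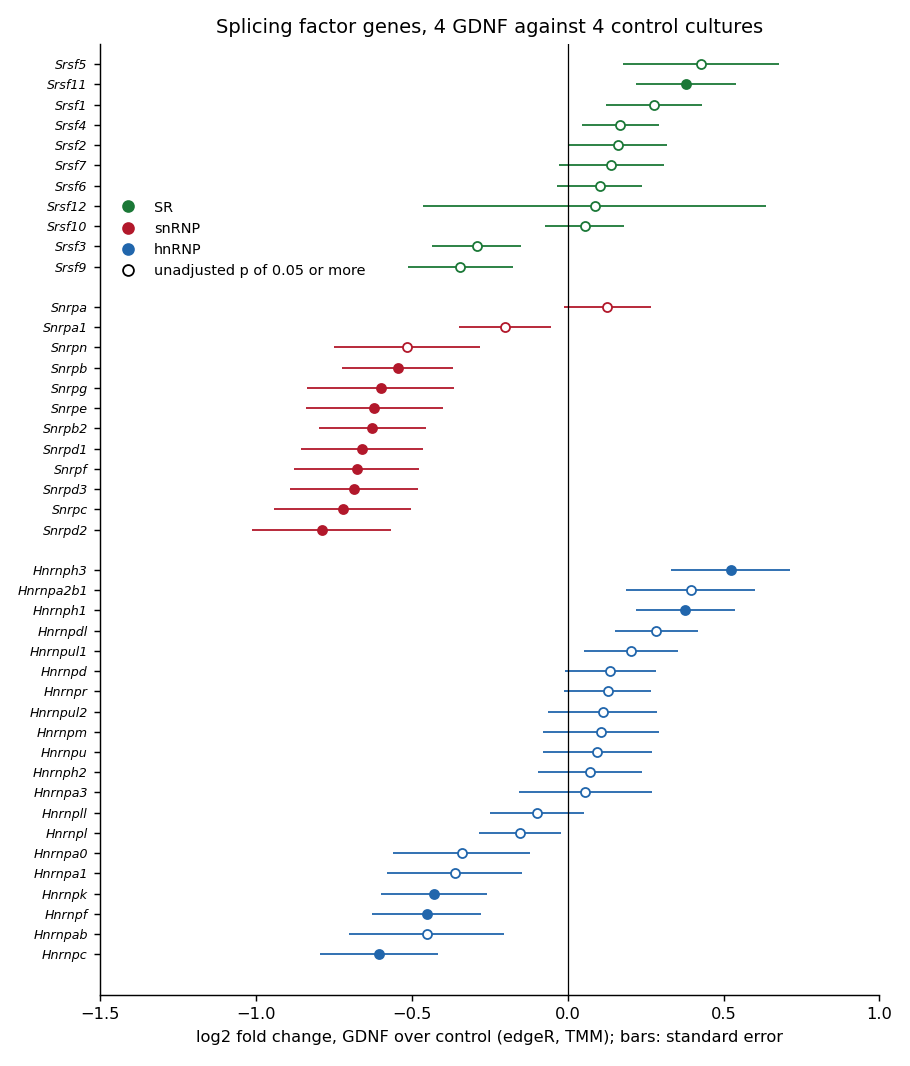
Log2 fold change of GDNF over control cultures for the 43 members by family (edgeR, TMM scaling, n = 4 per group); bars are standard errors and filled points have an unadjusted p below 0.05. In all, 9 of 12 snRNP genes lie filled on the left, between -0.55 and -0.79, while SR and hnRNP genes lie on both sides of 0.

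The Sm ring genes were lower in GDNF cultures by the unadjusted test in 7 of 7 cases, with log2 fold changes from -0.79 to -0.55, and 5 of them did not overlap between groups. Snrpd2 (chr7:19149445-19152734 in GRCm38.p6) had the lowest value of any member: it was at 198, 117, 128 and 96.0 CPM in controls and 94.6, 73.3, 76.5 and 67.3 CPM in GDNF cultures, and every GDNF culture was below every control. Its log2 fold change was -0.79 ± 0.22 (SE, edgeR, unadjusted p = 0.00543, adjusted p = 0.167). Snrpd1 (chr18:10617796-10628230) was at 179, 116, 119.9 and 109 CPM in controls and 101, 71.8, 87.8 and 71.5 CPM in GDNF cultures, again without overlap (-0.66 ± 0.19, edgeR unadjusted p = 0.00691, adjusted p = 0.167). In both genes control culture 3 was the highest of the 8.

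The ring's most abundant members behaved less evenly across the controls. Snrpe (chr1:133603871-133610280) was at 551, 359.8, 287 and 283 CPM in controls and 271, 234, 240.3 and 218 CPM in GDNF cultures (-0.62 ± 0.22, edgeR unadjusted p = 0.0182). Snrpg (chr6:86371540-86378902) was at 566, 355, 259.8 and 285 CPM and 262, 239.7, 247 and 218 CPM (-0.60 ± 0.24, edgeR unadjusted p = 0.0292). Control culture 3 was far above the other controls in both, Snrpe kept a narrow gap between groups, and Snrpg overlapped by 1 control culture. Without control culture 3, Snrpe had a log2 fold change of -0.37 (edgeR unadjusted p = 0.0276) and Snrpg one of -0.31, which no longer passed (unadjusted p = 0.0559). Snrpg also missed the unadjusted threshold without GDNF culture 12, 17 or 22, and Snrpe without GDNF culture 22. Of the other ring genes, Snrpf had a mean of 63.7 ± 14.9 CPM (SD, n = 4) in controls and 39.8 ± 7.69 CPM in GDNF cultures. Snrpd3 had 107 ± 27.3 and 66.6 ± 13.6 CPM and Snrpb had 193 ± 39.3 and 132 ± 19.98 CPM, and Snrpb alone of the 3 overlapped between groups.

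Among the genes for particle-specific proteins, those of U1 and U2 each had 1 member that was lower and 1 that did not pass. Snrpb2 (chr2:143063069-143072052), which encodes the U2 protein B'', had the smallest p of the family: it was at 86.3, 58.3, 58.8 and 54.4 CPM in controls and 44.6, 37.4, 44.6 and 40.4 CPM in GDNF cultures (-0.63 ± 0.17, edgeR unadjusted p = 0.00430, adjusted p = 0.167). Its partner in U2, Snrpa1, had a log2 fold change of -0.20 ± 0.15 and did not pass (unadjusted p = 0.199), and its value was 0.09 with the transcript length trend removed and 0.02 with library size alone. Snrpc, encoding the U1 protein that contacts the 5' splice site, was at 46.5 ± 13.9 CPM in controls and 28.2 ± 4.69 CPM in GDNF cultures (SD, n = 4) without overlap (-0.72, unadjusted p = 0.00818). Snrpa, encoding the U1 protein that binds the second stem-loop of U1 RNA, was the only snRNP gene with a positive value (0.13 ± 0.14, unadjusted p = 0.385). Snrpn was at -0.52 ± 0.23 and just missed the threshold (unadjusted p = 0.0515).

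In 11 of 12 snRNP genes, control culture 3 was the highest of the controls. Leaving it out gave a family median of -0.43, with 8 of 12 genes lower at an unadjusted p of 0.05. The median of all genes was 0.04 in that fit, and 8.18% of them were lower. Coding genes of like length were not examined in it. In DESeq2, 8 of 12 snRNP genes were lower at an adjusted p of 0.05, where 12% of the genes with an adjusted p were lower and 2.09% higher, and 1 of 20 hnRNP genes (Hnrnpc) and 0 of 11 SR genes were called.

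**Figure D3:**
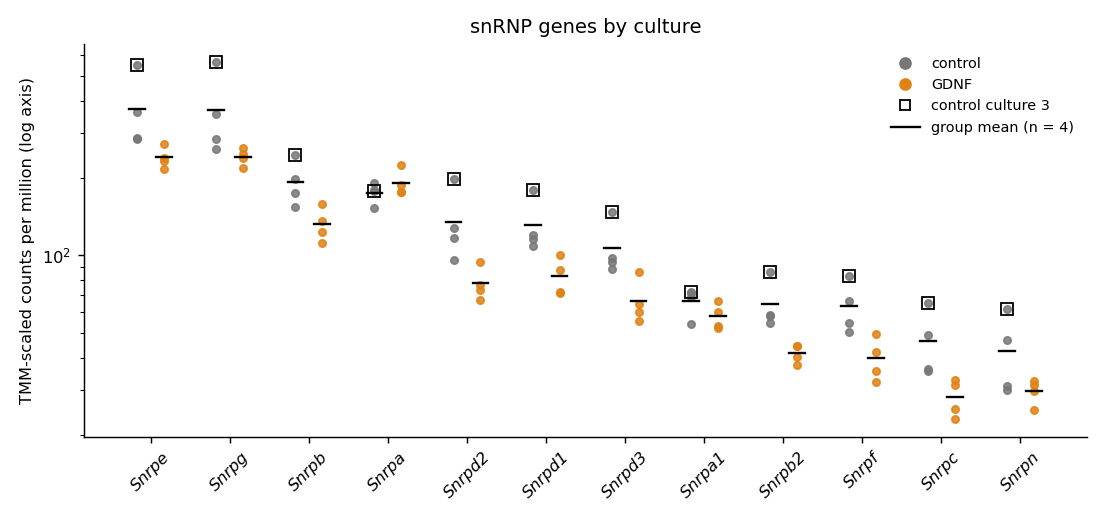
TMM-scaled CPM (log axis) of the 12 snRNP genes, with one point per culture, a bar at each group mean (n = 4) and a square around control culture 3. In 11 genes that culture is the highest control, and in 7 genes every GDNF culture lies below every control.

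Because the snRNP genes are short, their values were set beside those of all genes of like length. Genes were split by the length of their most counted transcript, and those whose transcript has a coding RefSeq accession (NM_) were used. Among transcripts of up to 500 bases (126 genes) the median log2 fold change was -0.58 and 47.6% of genes were lower at an unadjusted p of 0.05; the 3 snRNP genes there had a median of -0.62 and all 3 were lower. Above 500 and up to 1000 bases (972 genes) the median was -0.55 and 44.5% were lower, and the 4 snRNP genes there had a median of -0.68 and all 4 were lower. Above 1000 and up to 2000 bases (3405 genes) the median was -0.29 and 25.1% were lower, whereas the 5 snRNP genes had a median of -0.52 and 2 were lower. Above 4000 bases the median of all such genes was 0.29. Short coding transcripts thus had negative medians, whereas over all 631 genes of up to 500 bases, of any accession type, the median was 0.24 and 11.6% were lower. The snRNP medians differed from those of their coding classes by -0.04, -0.13 and -0.23 on the log2 scale, from the shortest class up.

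Across the 43 members, log2 fold change and log2 length had a Pearson r of 0.64 and a Spearman rho of 0.53, compared with 0.21 and 0.38 over all 16557 genes tested. The 2 sets are unlike in accession type: up to 500 bases the median was 0.24 over all genes but -0.58 over coding genes. The higher values across members are therefore not shown to be particular to them. These are descriptions across genes measured in the same 8 libraries. Within families the r was 0.54 for the 12 snRNP genes, 0.28 for the 11 SR genes and 0.14 for the 20 hnRNP genes.

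When a smooth trend of counts on transcript length was removed from each culture, the snRNP median became -0.27 against -0.01 for all genes, with 4 of 12 genes lower and 1 higher at an unadjusted p of 0.05 (9.89% and 6.70% of all genes). The 4 were Snrpd2 (-0.36, edgeR unadjusted p = 0.00886), Snrpb2 (-0.30, unadjusted p = 0.0190), Snrpd1 (-0.26, unadjusted p = 0.0314) and Snrpd3 (-0.28, unadjusted p = 0.0396), and the higher gene was Snrpa (0.38, unadjusted p = 0.0161). All 7 Sm ring genes kept a negative value, from -0.36 to -0.19. The trend was fitted to genes of every accession type together, whose median at up to 500 bases differed from that of coding genes. Values left after it are therefore not set against coding genes of like length. Scaling by library size alone moved the median of all genes to 0.25 and that of the snRNP genes to -0.38, a difference of -0.63 beside one of -0.66 under TMM. Why short coding transcripts differed between the groups was not tested.

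**Figure D4:**
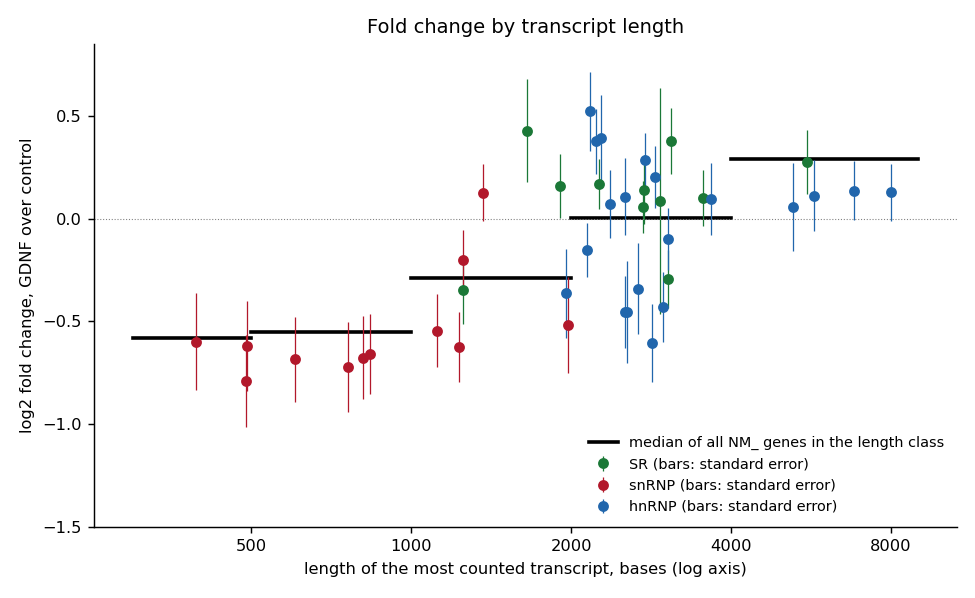
Log2 fold change of GDNF over control against the length of the most counted transcript (log axis) for the 43 members, with standard errors as bars, and the median of all genes with NM_ transcripts in each of 5 length classes as black lines. The class medians go from -0.58 in the shortest class to 0.29 in the longest, and the snRNP genes sit at the short end.

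In the SR family, 9 of 11 genes had positive and 2 had negative log2 fold changes, from -0.35 to 0.43, and 1 passed the unadjusted threshold. Srsf11 (chr3:158010915-158036667), which encodes the SR-related protein p54, was at 325, 454, 442 and 478 CPM in controls and 488, 573, 552 and 597 CPM in GDNF cultures, and all GDNF cultures were above all controls. Its log2 fold change was 0.38 ± 0.16 (edgeR unadjusted p = 0.0389, adjusted p = 0.207). The call was lost with RLE size factors and when control culture 3, 14 or 21 or GDNF culture 12, 17 or 22 was left out (0.27 to 0.40).

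Srsf3 (chr17:29032660-29043372), which encodes the smallest SR protein, SRp20, was at 842, 698, 747 and 657 CPM in controls and 656, 543, 618 and 586 CPM in GDNF cultures. The groups did not overlap, by a margin of less than 1 CPM between control culture 21 and GDNF culture 6, and the fold change of -0.29 ± 0.14 did not pass (edgeR unadjusted p = 0.0668). It passed the unadjusted threshold with the length trend removed (-0.32, edgeR unadjusted p = 0.0252). Srsf9, encoding SRp30c, was at 233, 142, 164 and 201 CPM in controls and 159, 138, 148 and 138 CPM in GDNF cultures (-0.35 ± 0.17, unadjusted p = 0.0678). At 1252 bases it is the shortest SR gene, and its value with the length trend removed was -0.04.

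The most abundant SR genes varied widely between cultures. Srsf5 was at 754, 1424, 916 and 992 CPM in controls and 1853, 1508, 1081 and 1056 CPM in GDNF cultures, and GDNF cultures 17 and 22 lay among the controls (0.43 ± 0.25, edgeR unadjusted p = 0.118). With the length trend removed its value was 0.58 (edgeR unadjusted p = 0.0484). Srsf7 was at 1965, 2107, 1734 and 1888 CPM and 2664, 1966, 1818 and 2030 CPM, with GDNF culture 6 above the rest (0.14 ± 0.17, unadjusted p = 0.423). Srsf2 was at 255, 285, 252 and 366 CPM and 355, 311, 306 and 322 CPM, with overlap (0.16 ± 0.16, unadjusted p = 0.329). CPM of every member with several listed transcripts, among them Srsf3, Srsf5, Srsf7, Hnrnpc, Hnrnpf and Hnrnpk, is summed over transcripts that share reads. It is not a level per gene. The other 5 SR genes (Srsf1, Srsf4, Srsf6, Srsf10 and Srsf12) had log2 fold changes of 0.05 to 0.28 and none passed. With library size alone, 5 of 11 SR genes were higher, where 19.9% of all genes were.

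The hnRNP genes lay in both directions. Hnrnpc (chr14:52073377-52104039), whose protein binds uridine tracts of nascent transcripts, had the lowest value of the family. It was at 1939, 1205, 1482 and 1261 CPM in controls and 1118, 859.7, 1006 and 887 CPM in GDNF cultures, without overlap, and its log2 fold change was -0.61 ± 0.19 (edgeR unadjusted p = 0.00952, adjusted p = 0.167). With a transcript of 2844 bases, its value was almost the same with the length trend removed (-0.62, unadjusted p = 0.00418), and it passed an unadjusted p of 0.05 with each culture left out in turn (-0.71 to -0.44).

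Hnrnpk (chr13:58391132-58403343) was at 5074, 3359, 3905 and 4301 CPM in controls and 3243, 2828, 3185 and 3093 CPM in GDNF cultures, and all GDNF cultures were below all controls (-0.43 ± 0.17, edgeR unadjusted p = 0.0300). Hnrnpf (chr6:117900340-117925622), which binds G-rich RNA, was at 1160, 761, 822 and 1004 CPM and 769, 590.0, 713 and 666 CPM, with GDNF culture 6 just above control culture 7 (-0.45 ± 0.17, unadjusted p = 0.0271). By library size alone neither passed (-0.20 and -0.22), and Hnrnpk also missed without GDNF culture 12, 17 or 22, as did Hnrnpf without control culture 3 or GDNF culture 12 or 22. With the length trend removed Hnrnpk and Hnrnpf both passed (-0.45 and -0.42, edgeR unadjusted p = 0.00798 and 0.00988). Hnrnpab was at 782, 419, 466 and 871 CPM and 524, 408, 509 and 413 CPM, and its spread was set by control cultures 3 and 21 (-0.45 ± 0.25, unadjusted p = 0.0977).

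Hnrnph3 and Hnrnph1, relatives of Hnrnpf that also bind G-rich RNA, were higher in GDNF cultures. Hnrnph3 (chr10:63014664-63023980) was at 31.9, 56.9, 50.4 and 54.9 CPM in controls and 79.7, 62.9, 63.8 and 72.4 CPM in GDNF cultures, with the lowest value in control culture 3 and no overlap (0.52 ± 0.19, edgeR unadjusted p = 0.0214, adjusted p = 0.179). Of the alternatives run, leaving out GDNF culture 6 alone moved it above the unadjusted threshold (0.45, unadjusted p = 0.0582). Hnrnph1 had a mean of 166 ± 31.5 CPM in controls and 215 ± 7.24 CPM in GDNF cultures (SD, n = 4) without overlap (0.38 ± 0.16, unadjusted p = 0.0390), but not past the threshold with RLE factors, with DESeq2 or when any culture other than control 7 or 21 was left out. Hnrnpdl, encoding a relative of Hnrnpd, had means of 103 ± 12.3 and 125 ± 7.97 CPM, also without overlap, and did not pass (0.28 ± 0.13, unadjusted p = 0.0594). Hnrnpa2b1 was at 1243, 1573, 1271 and 2223 CPM in controls and 2339, 1938, 1934 and 2082 CPM in GDNF cultures, where control culture 21 lay among the GDNF cultures (0.39 ± 0.21, unadjusted p = 0.0874). With the length trend removed its value was 0.44 (edgeR unadjusted p = 0.0441). The remaining 12 hnRNP genes had log2 fold changes from -0.36 (Hnrnpa1) to 0.20 (Hnrnpul1) and none passed.

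A ratio of 2 transcripts of the same gene does not depend on scaling between libraries, so each gene's listed transcripts were compared within every culture. No ratio passed an adjusted p of 0.05 in limma (0 of 7021 pairs in 3742 genes), and 11.5% of pairs (810) passed an unadjusted p of 0.05. Among 47 pairs from 20 members, 10 pairs in 6 genes (Srsf3, Srsf7, Srsf10, Hnrnpc, Hnrnpa1 and Hnrnpa2b1) did. Over all genes, 553 of 3742 had such a pair. The ratio to the most counted transcript was lower in GDNF cultures in 9 of these 10 pairs, and in 625 of the 810 over all genes. Such lower ratios made up 8.90% of all pairs. Pairs of one gene share most of their reads and are not independent. The smallest p was in Srsf3, and in Srsf3 and Srsf7 the transcript with more counts carries an extra exon. For this reason the start of each extra exon is shown, as GENCODE M21 gives it on GRCm38: 30 bases of the preceding coding exon in lower case, then in capitals the bases of the extra exon through the first in-frame stop codon, which is the last 3 capitals (TGA in both). The same 30 bases followed by the next 30 of the coding transcript, in lower case, stand below each.
Srsf3 with the extra exon: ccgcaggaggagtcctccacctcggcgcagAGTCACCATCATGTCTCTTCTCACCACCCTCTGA
Srsf3 coding transcript: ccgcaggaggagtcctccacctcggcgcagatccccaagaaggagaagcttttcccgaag
Srsf7 with the extra exon: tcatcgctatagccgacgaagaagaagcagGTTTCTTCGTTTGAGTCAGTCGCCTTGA
Srsf7 coding transcript: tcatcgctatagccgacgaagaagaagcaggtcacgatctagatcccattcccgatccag

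The Srsf3 exon is 456 bases long, at chr17:29039454-29039909 on the plus strand, and is exon 4 of the noncoding RefSeq transcript NR_036613. GENCODE lists the matching transcript as a target of nonsense-mediated decay. Reading in frame, the stop codon ends at base 34 of the exon. In Srsf7 the exon is 460 bases long, at chr17:80204622-80205081 on the minus strand, and is exon 4 of NR_036615, also listed as such a target, with a stop codon that ends at base 28. The Srsf7 coding sequence shown is that of NM_146083, whose length differs from that of NR_036615 by 451 bases. The lengths implied by the deposited tables differ by the length of the exon in these pairs: 3041 against 2585 for Srsf3 (NR_036613 and the coding NM_013663), and 2739 against 2279 for Srsf7 (NR_036615 and another coding transcript, NM_001195485). Counts of the longer transcript in excess of the coding one therefore come from reads that touch the extra exon, if each read was counted for every transcript whose exons it overlaps.

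For Srsf3, these extra counts were 1254, 2656, 2235 and 2256 in control cultures and 3598, 3666, 3470 and 3266 in GDNF cultures. Relative to the coding transcript's count they were 4.21, 8.28, 6.60 and 8.52% in controls and 12.6, 14.4, 12.2 and 14.8% in GDNF cultures, and each GDNF culture was above each control, the lowest being control culture 3. The group means were 6.90% ± 1.99 and 13.5% ± 1.31 (SD, n = 4), a ratio of 1.96. The log2 ratio of NM_013663 to NR_036613 was lower by 0.087 in GDNF cultures (-0.087 ± 0.016, SE; limma unadjusted p = 6.87e-04, adjusted p = 0.272), and the unadjusted p was at most 0.00283 with any culture left out.

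In Srsf7 the extra counts were 11.3, 18.9, 15.7 and 18.1% of the coding transcript's count in controls and 23.1, 21.7, 20.4 and 22.4% in GDNF cultures, also without overlap and again lowest in control culture 3. The group means were 16.0% ± 3.44 and 21.9% ± 1.18 (SD, n = 4). All 4 coding transcripts of Srsf7 had a lower ratio to NR_036615 in GDNF cultures, with log2 changes of -0.075 to -0.071 (limma unadjusted p = 0.0111 to 0.0128, adjusted p = 0.345 to 0.349). For Hnrnpa2b1, the extra exon of NR_104468 (136 bases, chr6:51461920-51462055, minus strand, in the 3' untranslated region) gave extra counts of 4.95, 8.66, 7.01 and 6.20% in controls and 8.83, 8.92, 8.25 and 8.68% in GDNF cultures, with control culture 7 among the GDNF cultures. Its log2 ratio change of -0.026 had an unadjusted p of 0.0483 in limma, which was above 0.05 when any culture other than control 7 was left out. Control culture 3 was lowest for all 3 exons, and without it the Srsf3 and Srsf7 pairs still passed the unadjusted threshold. These pairs were named for a small p in the same 8 cultures, so their passing is no measure of stability. Log2 changes over fits without 1 culture were -0.094 to -0.075 for Srsf3 and -0.084 to -0.052 for NM_001195485 of Srsf7. The part of control culture 3 in the size of these differences was not tested.

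Per base, the extra exon of Srsf3 had 39.1% ± 11.3 of the coding transcript's count density in controls and 76.6% ± 7.41 in GDNF cultures (SD, n = 4). In Srsf7 the values were 79.3% ± 17.1 and 109% ± 5.86. A density above that of the coding transcript shows that these percentages are not the share of transcripts that include the exon. Reads from spliced transcripts with the exon and reads from unspliced RNA cannot be told apart in these tables.

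**Figure D5:**
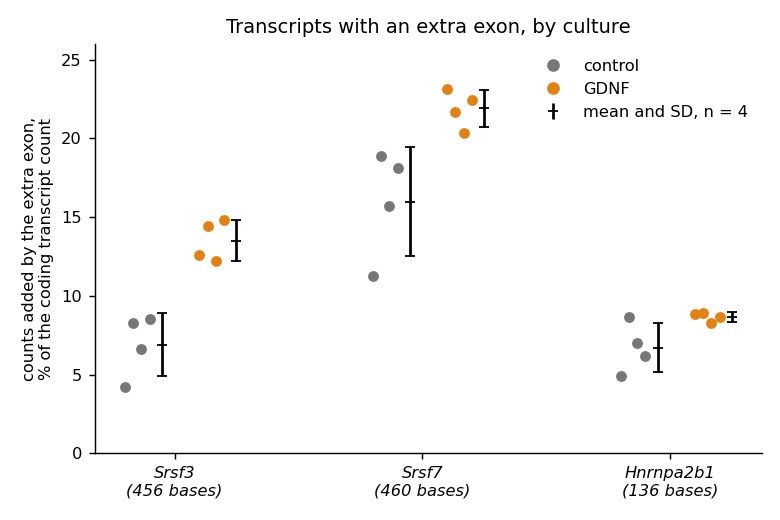
Counts added by the extra exon of the longer transcript, as a percentage of the count of the coding transcript, with one point per culture and the mean and SD of each group (n = 4). In Srsf3 and Srsf7 all GDNF cultures lie above all controls, and in Hnrnpa2b1 the groups overlap.

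Srsf10, whose protein represses splicing when dephosphorylated, had 2 pairs that passed. NM_010178 has 3421 bases and the reference transcript NM_001080387 has 2737, each with 6 exons in GENCODE, and NM_001284196 has 3418 bases. Counts of NM_001284196 were 78.0, 76.6, 77.0 and 75.0% of the reference count in controls and 72.5, 70.4, 68.4 and 71.3% in GDNF cultures, without overlap, and those of NM_010178 were 75.0% to 78.0% and 68.4% to 72.6%. Their log2 changes were both -0.12 (limma unadjusted p = 9.49e-04 and 0.001, adjusted p = 0.303 and 0.307). For Hnrnpa1 the noncoding NR_104427 was at 85.3, 85.8, 84.1 and 84.3% of NM_001039129 in controls and 88.6, 90.3, 86.6 and 85.9% in GDNF cultures (log2 change 0.049, limma unadjusted p = 0.0245), and it missed the threshold without control culture 14 or 21 or GDNF culture 6. In Hnrnpc the ratio of NM_001170982 to NM_016884 differed by -0.0058 on the log2 scale (unadjusted p = 0.0123), with group means of 99.6% and 99.2%.

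The rest of the splicing machinery was examined through 118 genes in 9 lists of spliceosome, assembly and regulator genes, all of which were tested. None passed the adjusted p in edgeR, and by the unadjusted p 26 were higher and 23 lower, with a median log2 fold change of -0.02; of all genes, 9.25% were higher and 12.9% lower. Lower genes outnumbered higher ones among the U4/U6.U5 tri-snRNP proteins (9 of 21 lower, 1 higher, median -0.38) and snRNP assembly factors (4 of 12 lower, 0 higher, median -0.40), and in the Prp19 complex 3 of 9 were lower and 1 higher (median -0.20). Higher genes were the more frequent among SR protein kinases (4 of 7 higher, 0 lower, median 0.37), SR-related proteins (5 of 8 higher, 1 lower, 0.38), U1 and 5' splice site proteins (3 of 6 higher, 0 lower, 0.42) and other regulators (8 of 34 higher, 1 lower, 0.13). Counts were 2 higher and 2 lower of 14 for U2 and branch site proteins and 2 higher and 3 lower of 7 for the U11/U12 minor spliceosome. With the length trend removed, these 118 genes gave 18 higher and 15 lower, where 6.70% of all genes were higher and 9.89% lower. Higher and lower genes were then equal or nearly equal in number for SR-related proteins (1 higher, 1 lower), the Prp19 complex (1 higher, 1 lower) and, with a median of -0.05, other regulators (6 higher, 5 lower). In that fit the tri-snRNP list had 0 higher and 4 lower, the assembly factors 0 higher and 2 lower, the SR protein kinases 3 higher and 0 lower, and the U1 list 4 higher and 0 lower.

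The 5 of these genes with the smallest p were all lower in GDNF cultures and none overlapped. Raly, an hnRNP-related gene of the C subfamily, was at -0.88 ± 0.21 (log2 fold change, SE; edgeR unadjusted p = 0.00182, adjusted p = 0.167). Prpf38a, needed for spliceosome activation, was at -0.80 ± 0.22, Snrnp25 of the minor spliceosome at -0.86 ± 0.23, the U2 protein gene Sf3b5 at -0.69 ± 0.19 and Strap, which acts in snRNP assembly with the SMN complex, at -0.53 ± 0.15. With the length trend removed the values of Raly and Strap were -0.70 and -0.52, and those of the shorter Snrnp25 and Sf3b5 were -0.44 and -0.28. Esrp1 and Esrp2, splicing regulators of epithelial cells, were at 0.14 ± 0.42 and 0.25 ± 0.39 (unadjusted p = 0.749 and 0.548), values within the spread between cultures.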

How the data were processed

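RNA was measured in 8 tubuloid cultures, 4 GDNF and 4 control, with SMART-Seq v4 libraries and poly-A selection. Per the labels and the study's methods, the authors mapped reads with STAR to mm10 (GRCm38); featureCounts and DESeq2 are also named in the submitters' processing notes, and versions are not given in the sources used here. The deposited tables give raw counts for each RefSeq transcript. Their deposited FPKM values divide these counts by transcript length and by the table's total, and served here to obtain lengths (tolerance 0.01 bases). The authors scaled the deposited TPM so that every culture has an equal sum. Transcripts of one gene often have nearly equal counts, so a read that fits several of them was probably counted for each. Sums over transcripts would then count it repeatedly. The rule for such reads, and for reads that map to several genes, is not given in the sources used here.

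Counts were summed per symbol and fitted across all genes with edgeR 4.0.16 in R 4.3.3 (filterByExpr, TMM, glmQLFit, glmQLFTest, Benjamini-Hochberg over 16557 genes). The standard error is the absolute log2 fold change over the square root of F. Transcript ratios used limma 3.58.1 on log2 ratios to the gene's most counted transcript (prior count 0.5, minimum of 20 counts), adjusted over 7021 pairs. Levels use the TPM of the most counted transcript. The length trend was a spline of 5 degrees of freedom per culture, fitted to genes of every accession type and entered as an offset. Alternatives were DESeq2 1.42.0, limma-voom, RLE, upper-quartile or no composition factors, other filters, 1 transcript per gene, and leaving out each culture. The fits were tested on simulated data. Python 3.11.15 with pandas 2.3.3 and matplotlib 3.10.9 made summaries and figures.

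Groups come from the titles and treatment labels. The labels do not say whether cultures came from separate animals, so p-values measure the spread between cultures, which may in part be technical. Per the study's methods, samples were divided between flow cell lanes. The lane of each culture is not given in the sources used here, so lane and pulse cannot be told apart. Total counts of 72991721 to 97490625 per culture make counting error small beside that spread for all members except Srsf12. The members and gene lists were chosen with earlier results of these data known. Described by culture were the 3 members of each family with the smallest unadjusted p and the 3 with the highest mean TPM. Named by mean or fold change were members with an unadjusted p below 0.05 or no overlap, transcript pairs with such a p, the 5 other splicing genes with the smallest p, and Esrp1 and Esrp2. The other members named were chosen after their values were seen. Gene coordinates are from RefSeq on GRCm38.p6 and exons from GENCODE M21 on GRCm38.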

Additional observations from a re-analysis of the deposited data

Results flagged for a closer look

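In each group of 4 cultures, a member's highest or lowest CPM was compared with the others by Dixon's criterion. Of 86 groups examined, 4 were beyond it, and chance alone gives about 1 in 20. Control culture 3 stood apart for 3 snRNP genes: Snrpb2 was at 86.3 CPM there, with the other controls at 54.4 to 58.8 CPM, Snrpd1 at 179 CPM, with the others at 109 to 119.9 CPM, and Snrpd3 at 148 CPM, with the others at 88.6 to 98.0 CPM. Control culture 21 stood apart for Hnrnpa3, at 339 CPM, with the other controls at 176 to 198 CPM. Without control culture 3, the log2 fold changes of Snrpb2, Snrpd1 and Snrpd3 were -0.45, -0.47 and -0.49 (edgeR unadjusted p = 0.00480, 0.0123 and 0.0162).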

How the results depend on the processing

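No paired analysis was possible because the groups share no culture numbers. None of the 23 members picked by the naming rule turned sign under any alternative run. That rule took many of them for a small p or no overlap in the same cultures, so their kept sign is no measure of stability. Of all 43 members, 10 turned sign under at least 1 alternative. Among them were Snrpa1 (0.09 with the length trend removed and 0.02 with library size alone) and Hnrnpa3 (-0.18 with the length trend removed). Srsf12 was another (-0.27 in limma-voom and -0.21 with GDNF culture 6 left out). None had an unadjusted p under 0.05 in edgeR or limma-voom where its sign turned. edgeR called 0 genes under every scaling and filter, whereas DESeq2 called 1253. By library size alone, the family medians were 0.36 (SR) and 0.30 (hnRNP), beside 0.25 for all genes tested. In that fit 5 SR, 1 snRNP and 6 hnRNP genes were higher, and 6 snRNP genes and 1 hnRNP gene were lower. Of all genes, 19.9% were higher and 5.13% lower there. With the length trend removed, the snRNP median was -0.27 (4 lower, 1 higher) and the hnRNP median -0.15, with 2 SR genes higher and 1 lower. The median of all genes was -0.01 in that fit, with 6.70% higher and 9.89% lower. RLE size factors gave 0 SR genes higher and 1 lower and 1 hnRNP gene higher, where 7.43% of all genes were higher and 14.1% lower. DESeq2 gave 1 SR gene lower and 1 hnRNP gene higher at an unadjusted p, and limma-voom 1 SR gene lower. Of all genes, 7.34% were higher and 12.5% lower in DESeq2, and 9.96% higher and 12.6% lower in limma-voom. With each culture left out in turn, medians ranged from -0.74 to -0.43 for snRNP, 0.10 to 0.19 for SR and 0.0013 to 0.14 for hnRNP genes. The counts ranged from 7 to 10 snRNP genes lower and 0 higher, and from 0 to 2 SR genes higher and 0 to 1 lower. For hnRNP genes they were 0 to 3 higher and 1 to 5 lower. Of all genes, 5.19% to 10.2% were higher and 7.88% to 15.3% lower in these fits. At the adjusted p, edgeR again called 0 genes. Member transcript pairs at an unadjusted p ranged from 8 to 16, and 0 pairs passed the adjusted p under any alternative. A culture left out leaves 3 in its group.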
